A study of Danio rerio with 14 samples.

Results

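Peaks of a pair of histone marks were compared within zebrafish embryos lacking Sox19b: H3K27ac, mapped in 2 replicate libraries, and H3K4me3, mapped in 1 library. Every peak of the 3 deposited lists that lies on chromosomes 1 to 25 of danRer11 was taken. This gave 141202 H3K27ac peaks in replicate 1, 173020 in replicate 2 and 42572 H3K4me3 peaks, together 356794 of the 681659 peaks that the 7 lists of the series hold on these chromosomes. The series contains 14 libraries, namely 7 chromatin immunoprecipitation (ChIP) libraries and their 7 inputs, and peak lists of the 7 ChIP libraries were used. The embryos were MZsox19b, that is, they carried the TALEN-made frameshift allele sox19b m1434 and had neither the maternal nor the zygotic Sox19b protein. The line goes back to 1 founder, and its AB/TL background is shared by the wild type (WT) and by MZspg, the maternal-zygotic mutants without Pou5f3. Dechorionated whole embryos were homogenized 4.3 hours after fertilization (hpf), the age at which WT embryos are at dome stage, and the homogenate was fixed at once. The age of the mutants was thus matched to the WT, whereas their stage was not scored independently, and the study describes later landmarks of MZsox19b as delayed.

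H3K4me3, a trimethylated lysine of histone H3, is laid down by SET1 and MLL methyltransferases around the start sites of active genes and of genes set up for activity. H3K27ac, an acetylated lysine on the same histone tail, is written by p300 and CBP at active promoters and also at distal enhancers, where H3K4me3 is usually low. Both marks appear on the zebrafish genome around zygotic genome activation, which maternal Pou5f3, SoxB1 proteins such as Sox19b and Nanog help to bring about. A peak with both marks therefore has the profile usually read as a promoter, and an H3K27ac peak far from H3K4me3 that of an enhancer. No gene annotation of danRer11 was used here, so these readings are background and peaks are described by position, strength, width and partner.

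Each peak carries a fold enrichment, the height of the ChIP signal at the summit over a local background, and peaks were ranked by it within their own list. "Strong" means the 10000 highest peaks of a list. This covered H3K4me3 peaks of at least 24.97-fold and H3K27ac peaks of at least 8.33-fold in replicate 1 and 7.38-fold in replicate 2. Peaks were called shared when they overlapped by at least 1 bp, and lone otherwise. The lists hold no read counts. Read numbers per library are stated by the study but were not used here, so no value is scaled by depth. Intervals are Wilson 95% intervals that cover counting error only. With 1 H3K4me3 library and 2 H3K27ac libraries, no test between marks was possible, and the difference between the H3K27ac replicates is the only measure of experimental error.

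Against the full H3K27ac lists, which are more than 3 times as long, most H3K4me3 peaks carried H3K27ac, and almost all strong ones did. Over the whole list, 70.5% of H3K4me3 peaks were overlapped by H3K27ac in replicate 1 and 71.5% in replicate 2, on average 71.0% ± 0.72 (SD, n = 2). The share was 65.2% in both replicates at once, while 23.2% of the H3K4me3 peaks met no H3K27ac peak in either. Among the 1000 highest H3K4me3 peaks, 152.6-fold or more, all 1000 were overlapped in each replicate, so that a count of 0 allows a share without H3K27ac of up to 0.3% (3 of 1000 peaks, or 0.383% by the Wilson interval). At ranks 1001 to 5000 the share was 99.85% in both replicates (interval 99.7 to 99.9%, 3994 of 4000 peaks each). It then declined to 97.4% and 96.1% at ranks 5001 to 10000 and to 81.1% and 77.3% at ranks 10001 to 20000. Below that it levelled off: 55.6% and 55.1% of the peaks at ranks 20001 to 30000 were shared, against 51.5% and 58.9% of the weakest, at ranks 30001 to 42572. The replicates differed by 7.42 percentage points in this last class, so no further decline was seen beyond the replicate error.

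The shares depended on the length of the H3K27ac lists. When each H3K27ac list was limited to its 42572 highest peaks, as many as H3K4me3 has, 48.6% and 45.9% of all H3K4me3 peaks carried H3K27ac and 47.0% and 44.7% of these H3K27ac peaks carried H3K4me3. Both lists then hold 42572 peaks and most overlapping peaks meet a single partner, so these shares are nearly equal by construction. Of the strong H3K4me3 peaks, 93.1% and 88.7% then carried H3K27ac, and those without it in both replicates rose to 604. When strong peaks were set only against strong peaks of the other mark, 59.2% and 52.1% of H3K4me3 and 59.3% and 53.4% of H3K27ac peaks were shared.

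**Figure D1:**
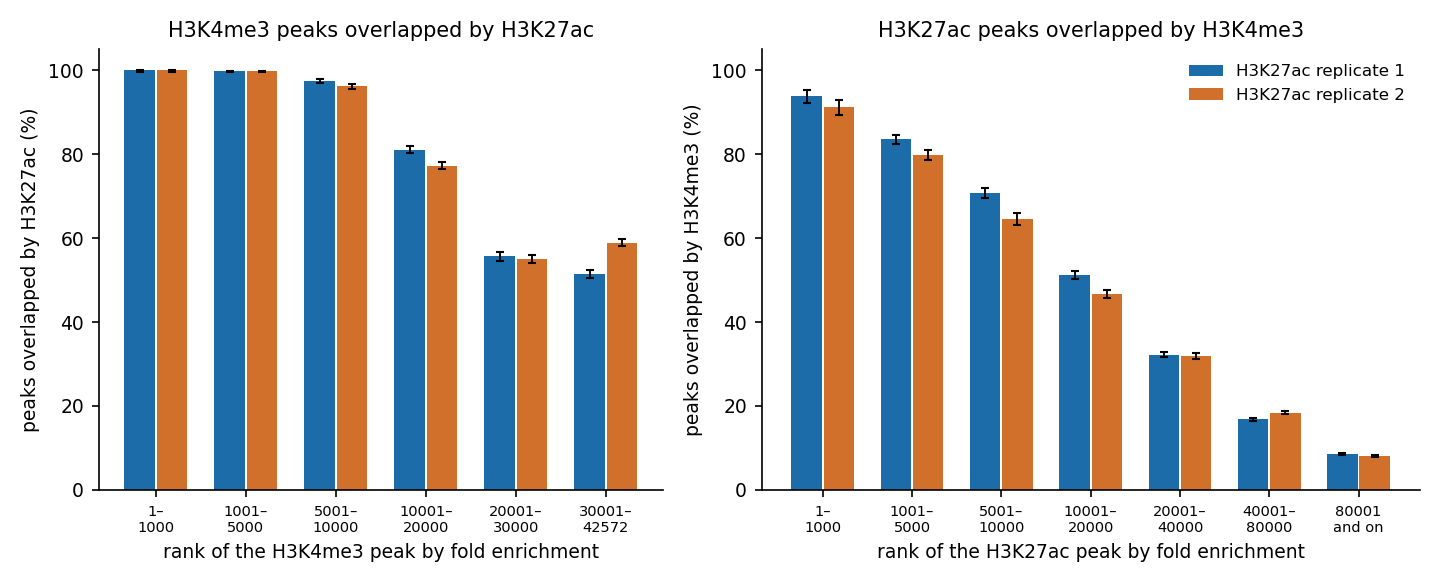
Share of H3K4me3 peaks overlapped by H3K27ac (left) and of H3K27ac peaks overlapped by H3K4me3 (right), in percent, by rank of the peak within its own list; bars are the 2 H3K27ac replicates of MZsox19b and error bars Wilson 95% intervals. The left bars stay at 96.1% or above to rank 10000 and flatten between 51.5 and 58.9% at the end, whereas the right bars fall in every class, from 93.9 and 91.3% to 8.52 and 8.04%.

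The reverse comparison gave a continuous decline. H3K4me3 overlapped 22.2% of the H3K27ac peaks of replicate 1 and 19.2% of replicate 2 (20.7% ± 2.12, SD, n = 2). Of the 1000 highest H3K27ac peaks, 93.9% (interval 92.2 to 95.2%) and 91.3% (89.4 to 92.9%) carried H3K4me3. The share was 83.5% and 79.8% at ranks 1001 to 5000, 70.7% and 64.6% at ranks 5001 to 10000, and 51.3% and 46.6% at ranks 10001 to 20000. It continued to fall to 32.2% and 31.9%, to 16.8% and 18.4%, and finally to 8.52% and 8.04% beyond rank 80000. Thus, of the strong H3K27ac peaks, 78.2% in replicate 1 and 73.3% in replicate 2 were shared, while the strong H3K4me3 peaks were shared at 98.7% and 98.0%. These strong shares differed by 20.5 and 24.7 percentage points between the marks when each was set against the full list of the other. The difference narrowed with H3K27ac lists of equal length. Strong peaks alone cannot show such a difference. Both sides then hold 10000 peaks and most overlapping peaks meet a single partner, so the shares are nearly equal by construction. Against the full lists, the strong shares of the H3K27ac replicates differed by 0.65 points for H3K4me3 and 4.82 for H3K27ac.

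The places where both marks were highest can be named. The best combined position, by the worst of its 3 ranks, was chr4:43391897-43393574. It held the highest H3K4me3 peak of the list, at 309.8-fold, and H3K27ac at 83.2-fold in replicate 1 and 61.1-fold in replicate 2. Its H3K27ac peaks were 6412 and 5268 bp wide and thus extended well beyond the 1678 bp of H3K4me3, with summits 3 and 13 bp from the H3K4me3 summit. Next came chr5:69592049-69594754, with 261.6-fold H3K4me3 and 61.4- and 59.7-fold H3K27ac, and chr23:36302852-36309471, with 260.5-fold H3K4me3 and 49.6- and 43.2-fold H3K27ac. At chr1:3296890-3300341 and chr15:1619930-1623076, H3K4me3 reached 263.1- and 272.3-fold, and H3K27ac lay between 38.0- and 48.0-fold in the 2 replicates. The 5 places lie on 5 chromosomes, and none ranked below 78 in any of the 3 lists.

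The top of the H3K27ac list was mixed in the height of its H3K4me3. The highest H3K27ac peak of replicate 1, chr7:73814069-73828849, was 14781 bp wide, with 98.9-fold and 75.9-fold enrichment in the 2 replicates, and it covered an H3K4me3 peak of 10502 bp and 181.9-fold. The second, chr6:55399724-55405134 (94.9- and 90.5-fold), met an H3K4me3 peak of 58.0-fold, at H3K4me3 rank 5477. The third, chr4:43388285-43394696, lay on the highest H3K4me3 peak of the list, at the best combined position above. The fourth, chr4:28702913-28703634, was only 722 bp wide, with 69.6-fold and 81.1-fold H3K27ac. The H3K4me3 beneath it, 24.4-fold at rank 10160, fell just outside the strong peaks. The fifth, chr1:58275854-58279535 (68.0- and 53.1-fold), met an H3K4me3 peak of 164.9-fold, at H3K4me3 rank 747. The places of this paragraph were named after their values were seen. A very high H3K27ac peak was therefore not always paired with a very high H3K4me3 peak.

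Counted in bases, the shares of the marks again differed, as set by the lengths that the lists cover. H3K27ac covered 65.9% of the H3K4me3 bases in replicate 1 and 65.3% in replicate 2, whereas H3K4me3 covered 23.8% and 19.3% of the H3K27ac bases. H3K4me3 peaks occupied 32.3 Mb, and H3K27ac peaks 89.3 and 109.1 Mb. Both shares rest on the same 21.2 and 21.1 Mb under both marks, so their ratio is that of these lengths. The median strong H3K4me3 peak had 79.7% and 79.1% of its length under H3K27ac. Most shared strong H3K4me3 peaks met a single H3K27ac peak, at 83.3% in replicate 1 and 71.9% in replicate 2. Where 2 or more H3K27ac peaks met the same strong H3K4me3 peak (1650 and 2755 peaks), their summits lay on both sides of the H3K4me3 summit at 65.2% and 64.7%.

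At shared strong H3K4me3 peaks, which were chosen by H3K4me3 height only, H3K27ac most often stayed within the H3K4me3 peak. In replicate 2 this was not a majority. H3K27ac stayed within the ends of the H3K4me3 peak at 52.3% of the shared strong peaks in replicate 1 and 45.1% in replicate 2. It passed 1 end at 34.6% and 38.0%, and both ends at 13.1% and 16.9%. Over all shared peaks, most of which are narrower, H3K27ac stayed within the ends at only 36.8% and 32.7%. It passed both ends there at 29.5% and 32.8%. The order of the 3 arrangements at strong peaks was the same in both replicates.

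Shared H3K4me3 peaks were wider at the median than lone ones, although a wider peak also meets the rule of 1 bp overlap more easily. The median shared H3K4me3 peak was 706 bp wide with replicate 1 and 684 bp with replicate 2, and the median lone one 282 and 300 bp. The share with H3K27ac rose from 53.4% and 56.7% of the 21065 H3K4me3 peaks under 500 bp to 77.5% and 75.4% of those of 500 to 1000 bp, and to 95.5% of those of 1000 to 2000 bp in replicate 1 (replicate 2, interval 94.5 to 95.4%). It reached 99.6% and 99.7% at 2000 to 3000 bp. All 582 peaks of 3000 to 5000 bp and all 46 of 5000 bp or wider carried H3K27ac in both replicates. Fold enrichment rose with width, from a median of 2.95-fold under 500 bp to 145.3-fold at 3000 to 5000 bp, and was 114.9-fold in the widest class, so width and strength were not separated by these classes. Within a rank class the difference remained. At ranks 10001 to 20000 the shared H3K4me3 peaks had a median width of 771 and 785 bp and the lone ones 610 and 602 bp, although the peaks with H3K27ac were also higher there (12.5- and 12.6-fold against 9.77- and 10.0-fold).

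The 5 widest H3K4me3 domains, 11812 to 15792 bp, lay on chromosomes 7 and 25. The widest, chr25:35131003-35146794, had 116.4-fold H3K4me3 and was met by H3K27ac peaks of 16250 bp and 39.7-fold in replicate 1 and 11664 bp and 36.8-fold in replicate 2. Further domains on the same chromosome began at 35056658 and 35099126, so that 3 of the 5 fell within 90.1 kb. The other 2 were chr7:5903879-5915690 and chr7:6343746-6357081. Their H3K4me3 enrichment, between 73.5- and 116.4-fold, ranked them at 2077 to 4295, well below the highest peaks. Their H3K27ac ranked from 91 to 1313. Summits of the 2 marks inside these domains were between 6 and 10036 bp apart.

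For H3K27ac the relation of width to sharing changed with rank. Over the whole lists, shared H3K27ac peaks were wider (median 624 and 600 bp) than lone ones (324 and 326 bp). At ranks 1001 to 5000 the replicates differed in direction over the full lists. The median was 2019 bp for lone against 1714 bp for shared peaks in replicate 1 and 1795.5 against 1861.5 bp in replicate 2. Of these lone peaks, 77 and 76 came from a single stretch of chromosome 5 described below. Without it the lone medians were 2346.5 and 2053.5 bp, above the shared medians of the full class in both replicates. At ranks 5001 to 10000 the lone peaks were the wider ones over the full lists. Their median was 1722.5 bp against 1241.5 bp in replicate 1 and 1731 against 1341 bp in replicate 2. The same held at ranks 10001 to 20000 (1199 against 905 bp and 1259.5 against 958 bp) and at ranks 20001 to 40000 (734 against 597.5 bp and 862 against 656 bp). At ranks 40001 to 80000 the difference was smaller but in the same direction (416 against 383 bp and 520 against 433 bp). From rank 5001 to rank 80000, H3K27ac peaks without H3K4me3 were thus broader than those of the same rank class with it, in both replicates. Beyond rank 80000 the medians were nearly equal (222 against 220 bp and 224 against 227 bp). In the top 1000 the order was opposite, 945 against 2479 bp and 1213 against 2551 bp, but only 61 and 87 peaks there were lone. Of these, 22 and 23 came from the same stretch of chromosome 5, and without it the lone median was 1961 and 1707.5 bp.

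At shared peaks the summits of both marks nearly coincided. From the H3K4me3 summit to the summit of the highest overlapping H3K27ac peak, the median distance was 49 bp in replicate 1 and 61 bp in replicate 2. At strong H3K4me3 peaks it was 33 bp (quartiles 13 and 104) and 42 bp (16 and 121), with 74.6% and 71.1% of the summits within 100 bp and 3.06% and 3.46% more than 1000 bp apart. For comparison, the summits of the 2 H3K27ac replicates at the same strong H3K4me3 peaks lay a median of 35 bp apart (quartiles 15 and 81, 9763 peaks). The typical offset between the marks was therefore close to that between replicates of 1 mark. The sonicated fragments were about 200 bp long per the labels, so distances of this size are finer than a fragment.

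**Figure D2:**
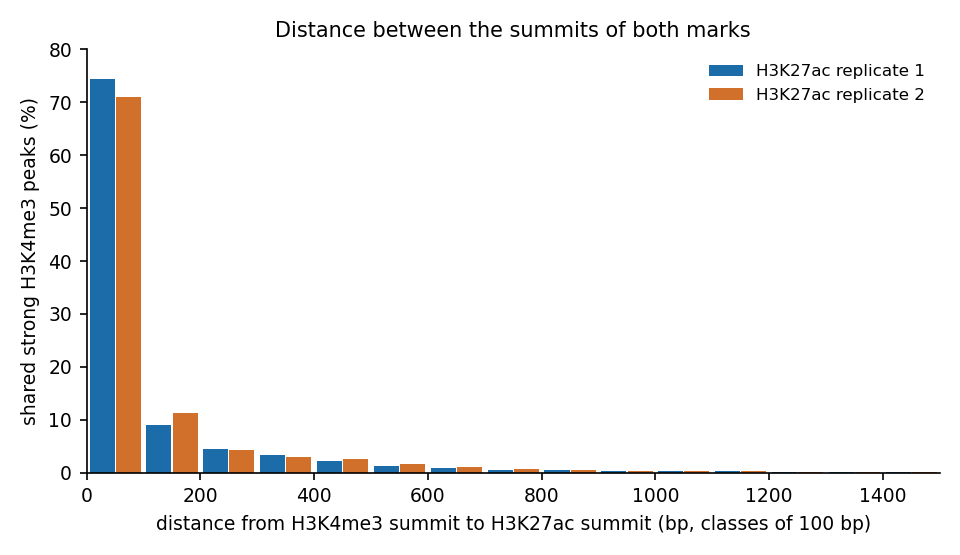
Distance in bp, in classes of 100 bp, between the H3K4me3 summit and the summit of the highest overlapping H3K27ac peak at shared strong H3K4me3 peaks of MZsox19b, as percent of these peaks; bars are the 2 H3K27ac replicates, and distances from 1500 bp on are not drawn. The first class holds 74.4% of the peaks in replicate 1 and 70.9% in replicate 2.

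A minority of strong H3K4me3 peaks had their H3K27ac summit displaced. Of the 9763 strong peaks with H3K27ac in both replicates, 1362 had a summit more than 250 bp from the H3K4me3 summit in replicate 1 and 1470 in replicate 2. Of these, 955 were displaced in both, that is, 70.1% and 65.0% of the displaced peaks of each replicate. At 908 of the 955 (95.1%) both summits lay on the same side. The median distance was 34 and 33.5 bp at the 1000 highest H3K4me3 peaks, 29 and 37 bp at ranks 1001 to 5000, and 37 and 49 bp at ranks 5001 to 10000. It rose to 52 and 68 bp at ranks 10001 to 20000 and to 71 and 77 bp in the weakest class. In that class 35.9% and 37.8% of the H3K27ac summits fell outside the H3K4me3 peak altogether, against 2.11% and 2.74% at strong peaks.

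Where the 2 marks met, H3K27ac was higher at higher H3K4me3 peaks, except in the weakest class. The median H3K27ac fold enrichment was 26.3 in replicate 1 and 19.6 in replicate 2 at the 1000 highest H3K4me3 peaks, 13.4 and 10.0 at ranks 1001 to 5000, and 6.65 and 5.28 at ranks 5001 to 10000. It was 4.11 and 3.43 at ranks 10001 to 20000 and 3.32 and 2.99 at ranks 20001 to 30000. In the weakest class it was 3.46 and 3.43 and thus not lower than in the class above. The upper quartile was higher there, at 6.37 and 6.36 against 4.87 and 4.45. Of the 1000 highest H3K4me3 peaks, 98.9% met a strong H3K27ac peak in both replicates, against 71.5% at ranks 1001 to 5000, 23.2% at ranks 5001 to 10000 and 7.52% at ranks 10001 to 20000. Fold enrichment was higher in replicate 1 than in replicate 2 at the same strong H3K4me3 peaks by a median of 0.40 on the log2 scale.

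**Figure D3:**
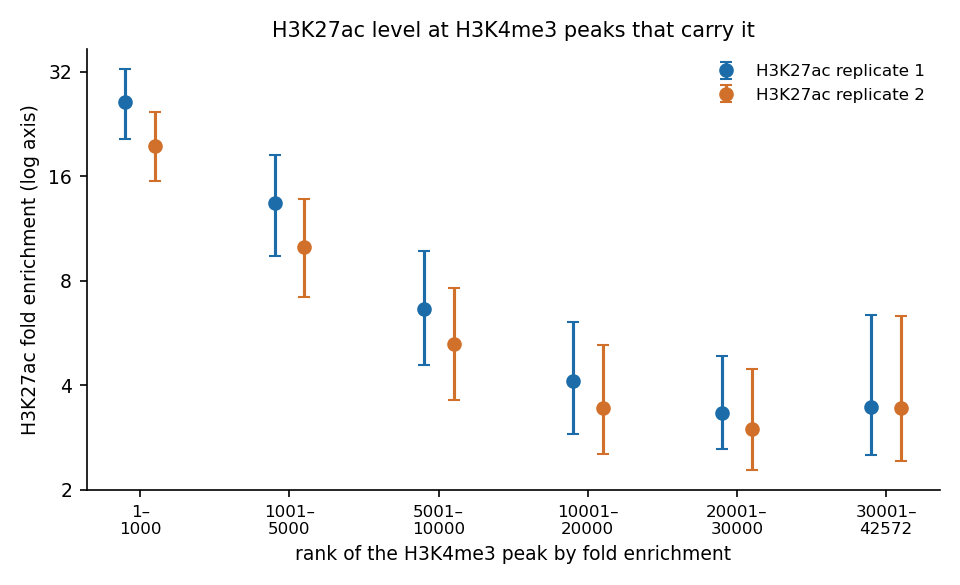
H3K27ac fold enrichment (log axis) of the highest H3K27ac peak at each H3K4me3 peak of MZsox19b that carries one, by rank of the H3K4me3 peak; points are medians and bars the quartiles, for each H3K27ac replicate. The median falls from 26.3 and 19.6 in the first class to 3.32 and 2.99 in the fifth and does not fall further in the last.

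The rank correlation of the fold enrichments of both marks was moderate. Spearman's rho was 0.52 over 30010 shared H3K4me3 peaks with replicate 1 and 0.42 over 30444 with replicate 2, and Pearson's r on the log2 scale was 0.55 and 0.46. These are correlations across peaks of 1 H3K4me3 library and are given as a description, without a p-value. Among strong H3K4me3 peaks rho was 0.69 and 0.67. Within narrower classes it was 0.38 and 0.50 in the top 1000 and 0.48 and 0.47 at ranks 1001 to 5000. It was 0.26 and 0.24 at ranks 5001 to 10000, and 0.01 and -0.03 at ranks 20001 to 30000. The 2 H3K27ac replicates, read at the same H3K4me3 peaks, had a rho of 0.88 over all and 0.94 over strong ones, and still 0.77 at ranks 20001 to 30000. These values are not directly comparable, since the classes restrict the range of H3K4me3 (3.22- to 6.73-fold at ranks 20001 to 30000) but not that of H3K27ac. The H3K4me3 values had no replicate. Widths of the 2 marks at strong H3K4me3 peaks were also correlated across peaks, with a rho of 0.73 and 0.69.

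Strong H3K27ac at weak H3K4me3 peaks was wide. Strong H3K27ac in both replicates was found at 4.93% (interval 4.52 to 5.37%) of the H3K4me3 peaks of ranks 20001 to 30000 but at 8.87% (8.38 to 9.38%) of the still weaker peaks of ranks 30001 to 42572. The H3K27ac peaks met by the latter were wide, with a median of 3444 bp in replicate 1 and 3314.5 bp in replicate 2. Those at ranks 20001 to 30000 were nearly as wide (3108 and 3056 bp), against 1541.5 and 1659 bp at strong H3K4me3 peaks. These medians run over H3K4me3 peaks, so an H3K27ac peak that met several was counted for each of them. Of the 1233 and 1590 weakest H3K4me3 peaks at strong H3K27ac, 1198 and 1552 lay wholly within the H3K27ac peak, as did 859 of 5916 and 866 of 5208 strong ones. Another H3K4me3 peak of any height lay under the same H3K27ac peak at 62.3% and 60.4% of the weakest ones, at 52.5% and 51.5% at ranks 20001 to 30000, and at 8.06% and 9.33% of the strong ones.

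Strong H3K4me3 without H3K27ac was rare and concentrated at the weaker end of the strong peaks. Of the 10000 strong H3K4me3 peaks, 9763 met H3K27ac in both replicates, 103 in replicate 1 only, 38 in replicate 2 only and 96 in neither (0.96%, interval 0.787 to 1.17%, against 23.2% of all H3K4me3 peaks). The count depended on the replicate, since replicate 1 alone left 134 strong peaks without H3K27ac and replicate 2 alone 199. Of the 96, none was among the 3000 highest H3K4me3 peaks, 4 fell at ranks 3001 to 5000, 11 at ranks 5001 to 7000 and 81 at ranks 7001 to 10000. Counting H3K27ac below 4-fold as absent, 972 strong peaks (9.72%) lacked it in both replicates, so low or absent H3K27ac was 10.1 times as frequent as absent H3K27ac.

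The 96 peaks were narrower at the median than the strong peaks with H3K27ac. Of these, 92 had ranks 5001 to 10000, and their median width was 860.5 bp, against 1186 bp for the 4908 peaks of these ranks with H3K27ac in at least 1 replicate. Their median enrichment was 32.2-fold against 39.8-fold. Their median rank was 8562.5 against 7474.5, so these widths were not matched by rank. A narrow peak also meets the rule of no overlap by 1 bp more easily. Widths of the 96 ran from 347 to 1455 bp, so none reached 2000 bp. They were not next to H3K27ac peaks as a rule. The median distance to the nearest H3K27ac peak was 8056 bp in replicate 1 and 4847 bp in replicate 2, and 42 of the 96 lay more than 5000 bp from H3K27ac in both. Only 11 lay within 1000 bp of H3K27ac in both. They were spread over all 25 chromosomes, with 9 on chromosome 20.

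The highest of them was chr2:9061791-9062576, at 91.6-fold and H3K4me3 rank 3152, where the nearest H3K27ac peak was 31679 bp away in replicate 1 and 10703 bp in replicate 2. The second was chr1:55785323-55786037, at 84.7-fold, with an H3K27ac peak 43 bp outside its bounds in replicate 2 but none within 4372 bp in replicate 1. Next came chr8:47328925-47330090 at 73.9-fold, with H3K27ac 3767 and 3704 bp away, and chr20:18382094-18383065 at 66.1-fold (7766 and 7910 bp). The fifth, chr19:19193429-19194356 at 63.1-fold, had H3K27ac 411 and 74 bp beyond its bounds. Places with no H3K27ac for several kilobases and places with H3K27ac just beside the H3K4me3 peak were thus both present.

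The WT and MZspg lists were not used to choose these places. WT H3K4me3 was present at 96 of the 96 and MZspg H3K4me3 at 92. WT H3K27ac, by contrast, was present at 8 (8.33%, interval 4.28 to 15.6%) and MZspg H3K27ac at 33 (34.4%, 25.6 to 44.3%). Among H3K4me3 peaks of ranks 5001 to 10000 with H3K27ac in MZsox19b, WT H3K27ac was present at 86.5% and MZspg H3K27ac at 89.9%. WT H3K4me3 was present at 99.7% of those peaks and MZspg H3K4me3 at 90.3%. The presence of H3K4me3 in the other genotypes was thus not particular to the 96. In all, 61 of the 96 had no H3K27ac in any of the 4 H3K27ac lists. Where WT or MZspg did have H3K27ac at these places it was low, 1.97- to 3.75-fold in WT and 1.99- to 4.87-fold in MZspg. At chr2:9061791-9062576, for example, H3K4me3 was 25.5-fold in WT and 17.5-fold in MZspg, and no H3K27ac peak was listed in either.

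**Figure D4:**
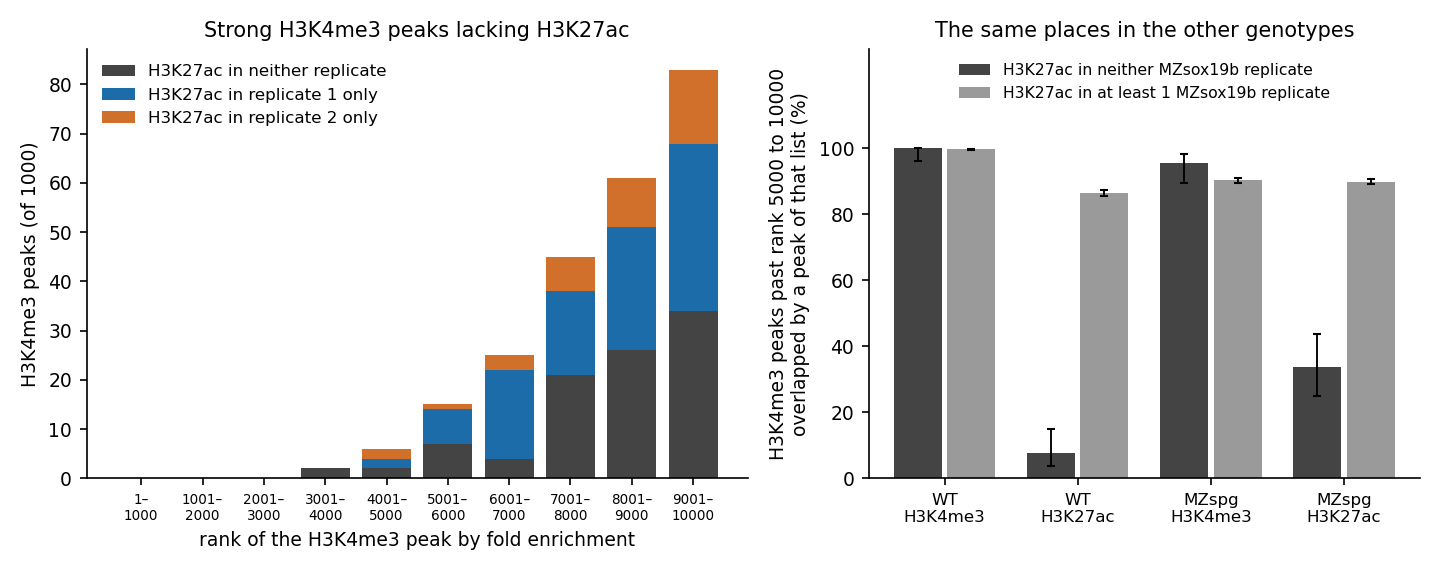
Left, number of MZsox19b H3K4me3 peaks per 1000 ranks that lack H3K27ac in both replicates or carry it in only 1 of them. Right, percent of MZsox19b H3K4me3 peaks of ranks 5001 to 10000 overlapped by peaks of the WT and MZspg lists, for the 92 peaks without H3K27ac in MZsox19b and the 4908 with it in at least 1 replicate (error bars, Wilson 95% intervals). Peaks in neither replicate rise from 0 in the first 3 classes to 34 in the last. The 92 carry WT H3K4me3 at 100% and WT H3K27ac at 7.61%, against 99.7% and 86.5% for the 4908.

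Most H3K27ac peaks without H3K4me3 lay more than 5000 bp from it. Lone H3K27ac peaks numbered 109874 in replicate 1 and 139812 in replicate 2, and their median distance to the nearest H3K4me3 peak was 8468.5 and 8441.5 bp. Neighbouring H3K4me3 peaks were themselves separated by a median of 13279 bp. Only 10.2% and 10.4% of the lone peaks lay within 1000 bp of H3K4me3, 36.4% and 36.6% lay within 5000 bp, and 25.8% in each replicate lay more than 20000 bp away. To the nearest strong H3K4me3 peak the median distance was 34907.5 and 34440.5 bp. Stronger lone peaks lay slightly nearer to H3K4me3: the median was 7125 and 6447 bp for strong lone peaks and 8900.5 and 8805 bp beyond rank 80000. For distances to strong H3K4me3 the order was the other way in both replicates, with 38419 and 36742 bp for strong lone peaks and 34469.5 and 33539 bp beyond rank 80000. All of these distances run edge to edge. Strong lone peaks were wider, with medians of 1797 and 1731 bp against 222 and 224 bp beyond rank 80000. The distances were not adjusted for width or chromosome, and those expected of random positions were not computed.

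Strong lone H3K27ac peaks, 2184 in replicate 1 and 2666 in replicate 2, were highly repeatable. All 2184 of replicate 1 met an H3K27ac peak in replicate 2, and 2658 of the 2666 the other way. In 1671 cases the pair was strong and lone in both replicates. Summits of the paired peaks lay a median of 40 and 43 bp apart. Over all lone peaks, including the weak ones, 73.4% and 54.9% were found in the other replicate, against 90.9% and 89.5% of all shared H3K27ac peaks, but lone peaks are also of lower rank. Within rank classes nearly all were found down to rank 40000, whether lone (97.1% or more) or shared (98.5% or more). Beyond rank 80000 the lone peaks were found less often than the shared ones, with 55.9% of the lone and 65.4% of the shared peaks found from replicate 1, and 35.0% and 64.5% from replicate 2. The strong lone places were also marked by H3K27ac in other genotypes, in WT at 92.8% and 93.8% and in MZspg at 77.1% and 79.3%, against 98.9% and 99.0% in WT and 95.2% and 94.6% in MZspg for strong shared places. The strong lone places carried H3K4me3 in WT at 14.6% and 20.2% and in MZspg at 3.11% and 4.35%. For strong shared places this was 92.6% and 91.4% in WT and 79.3% and 75.6% in MZspg. Over all lone peaks it was 7.02% and 7.31% in WT and 1.13% and 1.26% in MZspg. The MZspg H3K4me3 list is the shorter one, with 22502 peaks against 53634 in WT.

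The highest H3K27ac peaks that were lone in both replicates were chr21:18561799-18563732, with 42.3- and 39.3-fold enrichment and H3K4me3 11544 bp away, and chr13:15625441-15626332, with 36.7- and 40.6-fold and H3K4me3 at 1208 bp. At chr13:44403999-44405816 (40.1- and 31.9-fold) and chr2:13640057-13641749 (36.8- and 32.9-fold), H3K4me3 began only 305 and 260 bp beyond the H3K27ac peak. The fifth was chr4:69506240-69507184, with 34.6- and 37.7-fold and H3K4me3 at 2627 bp. The highest lone peaks were therefore a mixture of distal places and places beside an H3K4me3 peak. All 5 had H3K27ac in WT, between 6.61- and 13.5-fold, and in MZspg, between 3.77- and 16.9-fold.

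Lone strong H3K27ac was unevenly distributed over the chromosomes. The share of strong H3K27ac peaks without H3K4me3 had a median over 25 chromosomes of 19.5% in replicate 1 and 23.8% in replicate 2. It was lowest on chromosome 22, at 10.3% and 12.4%, and highest on chromosomes 4, at 35.4% and 40.5%, and 5, at 35.8% and 37.4%. Chromosome 4 alone held 526 of the 2184 strong lone peaks of replicate 1 (24.1%) and 715 of the 2666 of replicate 2 (26.8%), as well as 14.9% and 17.7% of all strong H3K27ac peaks, and 8 of the 10 most crowded windows of 1 Mb lay on it. On chromosome 5 much of the lone share came from a single stretch. Between 43100000 and 43300000 lay 103 strong lone H3K27ac peaks of replicate 1 and 101 of replicate 2, that is, 4.72% and 3.79% of all strong lone peaks of the genome. Without this stretch the lone share of chromosome 5 was 22.1% and 23.4%. The next most crowded windows of 1 Mb, at 18 to 19 Mb of chromosome 21 and 42 to 43 Mb of chromosome 4, held 34 and 33, and 29 and 34, strong lone peaks, against 108 and 107 at 43 to 44 Mb of chromosome 5.

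In this stretch the H3K27ac peaks were evenly spaced and of like height. Replicate 1 had 116 strong peaks there, with a median spacing between neighbouring summits of 1227 bp (quartiles 1204 and 1258.5), and replicate 2 had 114, with 1223 bp (1207 and 1258). Of the spacings, 93 of 115 and 95 of 113 fell between 1100 and 1300 bp. Fold enrichment had a median of 25.04 (quartiles 23.5 and 26.6) in replicate 1 and 20.0 (19.0 and 21.0) in replicate 2, and median widths were 756 and 768 bp. All 116 peaks of replicate 1 met a peak of replicate 2, with summits a median of 21.5 bp apart. H3K4me3 was weak there, with 23 peaks (H3K27ac had 127 and 125 in all), a median of 2.00-fold and none above 6.80-fold. Genome-wide, spacings of 1100 to 1300 bp made up 6.48% and 5.76% of the spacings between neighbouring strong lone H3K27ac peaks, and 0.642% and 0.725% between strong shared ones. Of the 140 and 152 such spacings of lone peaks, 91 in each replicate lay on chromosome 5, and 25 and 31 on chromosome 4. This spacing class was set around the spacing in the stretch, after the first results were seen. The part of the higher share that lies on chromosome 5 is therefore not a result separate from the stretch. Outside chromosomes 4 and 5 lay 24 and 30 such spacings of lone peaks, among 2159 and 2641 spacings in all. Shared peaks had 36 and 40 there, and 14 and 12 on chromosome 4, among 7791 and 7309. A difference outside the stretch was not tested.

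**Figure D5:**
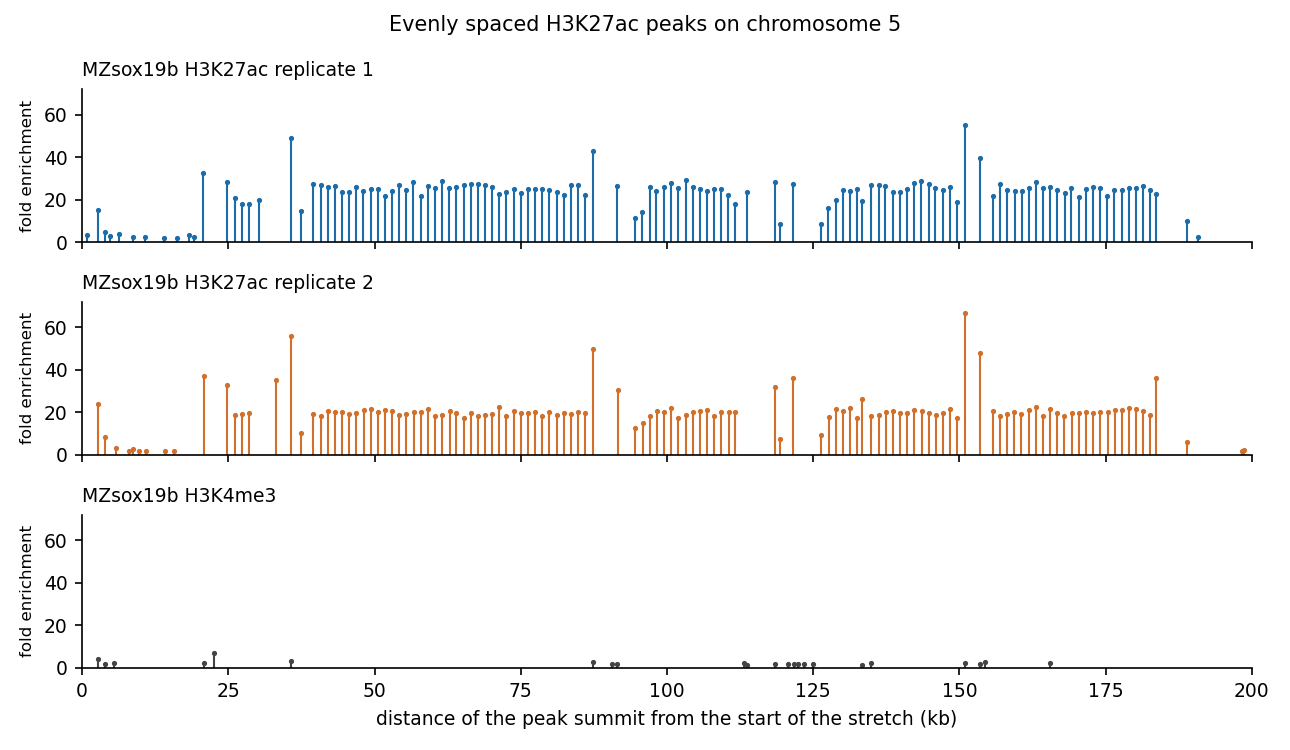
Fold enrichment of every peak in the stretch of chromosome 5, for the 2 H3K27ac replicates and H3K4me3 of MZsox19b, against the distance of its summit from the start of the stretch in kb; each line with a dot is a peak. Both H3K27ac replicates show rows of peaks near 25.04- and 20.0-fold at median steps of 1227 and 1223 bp, and no H3K4me3 peak exceeds 6.80-fold.

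The row of peaks was present in WT as well. WT H3K27ac had 110 strong peaks in the same stretch at a median spacing of 1232 bp, with a median of 7.62-fold. MZspg H3K27ac had 147 peaks there, with a median of 5.47-fold over all of them, against 7.27-fold over all 143 of WT. Only 26 of the 147 were strong, with a median of 6.76-fold and a median spacing of 4869 bp. The spacing of all 147 was not computed. WT and MZspg H3K4me3 had 23 and 5 peaks, of 4.34-fold at most. The sequence below these peaks was not read, and whether its copies resemble each other was not tested. How the authors' mapping treated reads that fit several places is not given in the sources used here. Fold enrichment and spacing in the stretch therefore hold only for the peaks as listed. Leaving the stretch out, an alternative chosen after seeing the data, left the mean share of H3K27ac peaks with H3K4me3 at 20.7% and the count of strong H3K4me3 peaks without H3K27ac at 96, but it moved the top of the H3K27ac list. Of the 1000 highest H3K27ac peaks, 96.0% and 93.4% of those outside the stretch were shared.

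Side by side with the other genotypes, each with 1 library per mark, the MZsox19b values were as follows. H3K27ac overlapped 69% of the H3K4me3 peaks in WT and 86% in MZspg, and H3K4me3 overlapped 30.9% and 16.2% of the H3K27ac peaks. These lists differ in length (53634 and 22502 H3K4me3 peaks, against 42572 in MZsox19b), and whole-list shares move with it. Of the 10000 highest H3K4me3 peaks, 98.7% and 98.0% carried H3K27ac in the 2 MZsox19b comparisons, 94.4% in WT and 98.1% in MZspg. Only these ranked peaks were equal in number, and they were not equal in height. The lowest of them had 24.97-fold H3K4me3 in MZsox19b, 11.87-fold in WT and 6.16-fold in MZspg. The H3K27ac lists they met were not equal in length. Those held 141202 and 173020 peaks over 89.3 and 109.1 Mb in MZsox19b. In WT they held 125836 peaks over 50.8 Mb, and in MZspg 122893 over 57.2 Mb. H3K27ac lists of equal length were not compared for WT and MZspg. The 10000 highest H3K27ac peaks reached down to 8.33- and 7.38-fold in MZsox19b, 5.53-fold in WT and 6.36-fold in MZspg. Their shares with H3K4me3 were 78.2% and 73.3% in MZsox19b, 67.9% in WT and 71.3% in MZspg. The 2 MZsox19b values differed by 4.82 percentage points, while WT lay 5.47 points below the lower and MZspg 2.08 points below it. The MZspg value thus lay nearer to replicate 2 than the 2 replicates lay to each other. With 1 library per mark and genotype, a difference from WT was not tested. The median summit distance over all shared peaks was 40 bp in WT and 48 bp in MZspg, against 49 and 61 bp in MZsox19b.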

How the data were processed

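Chromatin of whole embryos was immunoprecipitated with Abcam ab4729 (H3K27ac) or Millipore 07-449 (H3K4me3), with nuclei of different days pooled for each experiment. Each MZsox19b library came from 1 ChIP experiment. WT and MZspg H3K27ac pooled 2 each. Groups and replicate numbers come from the sample titles.

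The authors mapped reads to danRer11 with Bowtie2 (2.3.2.2 in the submitters' processing notes) and called peaks per library with MACS2 at q 0.05 against pooled inputs. Each deposited list is in narrowPeak format. The authors' score is 10 times the −log10 q, rounded down. The deposited fold enrichment is the ratio of signal at the summit to local background. The deposited −log10 p-value and −log10 q-value measure significance, and the last column is the summit offset. Nothing else in the lists measures depth.

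Peaks on chromosomes 1 to 25 were ranked by fold enrichment, ties by −log10 q and then position. Overlap needed 1 bp, and coordinates are printed 1-based. Where several H3K27ac peaks met an H3K4me3 peak, the highest was taken. Distances run edge to edge. Overlaps were computed in Python 3.11.15 with pandas 2.3.3 and SciPy 1.17.1 and checked against bedtools 2.31.1 and on simulated data. Places were named by a rule: the 5 highest H3K4me3 peaks without H3K27ac, the 5 highest H3K27ac peaks lone in both replicates, the 5 with the best worst rank over the 3 lists, and the 5 widest H3K4me3 peaks. The members, gene lists and rules were chosen with earlier results of these data known. Gene starts and sequences of danRer11 were not used here, so the planned counts at promoters of listed genes and the base composition of peaks were not computed. Alternatives changed the overlap, threshold, list length, ranking, chromosomes and replicate.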

Additional observations from a re-analysis of the deposited data

Results flagged for a closer look

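Peaks on sequences outside chromosomes 1 to 25 were not used above. There, 61.5% of the H3K4me3 peaks of MZsox19b were overlapped by H3K27ac in replicate 1 and 61.5% in replicate 2, over 9058 H3K4me3 peaks. These stand here because they are signal in data left out of the comparisons. On the same sequences, H3K4me3 overlapped 28.0% of 21076 H3K27ac peaks and 24.0% of 25739. The study's methods say that such sequences were excluded, whereas the lists hold them.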

How the results depend on the processing

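Values here are means over the H3K27ac replicates, which is how each was 71.0% (H3K4me3 with H3K27ac), 20.7% (H3K27ac with H3K4me3), 8455 bp (lone distance), 55 bp (summit distance) and 0.47 (rho) above. Of the 53 planned recomputations, 29 moved their value by more than the SD between replicates, or a count by more than 1.5 times, and 24 did not. With 2 replicates, leaving out 1 cannot move a mean share, distance or rho by more than this SD. Those recomputations fall among the 24 by construction. Chromosome 4 left out gave 8824 bp for the lone distance. An overlap of at least 50% of the shorter peak gave 69.6% and 8279 bp. A summit of the other mark inside the peak gave 61.6%, 17.3%, 7821 bp and 189 strong H3K4me3 peaks without H3K27ac in place of 96. Merging peaks within 1000 bp gave 73.1%, 27.05% and 10741 bp. Requiring a −log10 q of 5 gave 63.3%, 31.1%, 9488 bp and 310 strong peaks. Requiring 4-fold H3K27ac and 8-fold H3K4me3 gave 64.3%, 40.7%, 17520 bp and 972. H3K27ac lists as short as the H3K4me3 list gave 47.2%, 45.8%, 7613.5 bp and 604. At equal length the 2 shares are nearly equal by construction, since most overlapping peaks meet a single partner. All sequences gave 69.3% and 59. The 5000 and 20000 highest H3K4me3 peaks gave 4 and 1595 peaks without H3K27ac. Strong H3K4me3 peaks alone gave a summit distance of 37.5 bp and a rho of 0.68. The cause of these shifts was not tested beyond what each setting removes.

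Leaving out each H3K27ac replicate gave 70.5 to 71.5%, 19.2 to 22.2%, 8441.5 to 8468.5 bp, 49 to 61 bp, a rho of 0.42 to 0.52 and 134 to 199 strong H3K4me3 peaks without H3K27ac, 199 of them without replicate 1. No paired analysis was possible because there is 1 H3K4me3 library, and no test was made. Promoter counts at 500 and 2000 bp from gene starts were not run. Depth, not carried by the lists, limits all absences, since a place without a listed peak may hold signal under the q threshold of 0.05.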
